A study of Mus musculus with 75 samples.

Results

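The 37 genes of the mouse mitochondrial genome were followed in RNA from sorted nuclei of medium spiny neurons of the nucleus accumbens. They were taken as every row of the count table whose GENCODE M21 symbol starts with mt-, which gave 37 of 55401 identifiers. The annotation places all of them on chromosome M of mm10, as 2 ribosomal RNA (rRNA) genes, 13 protein genes and 22 transfer RNA (tRNA) genes. No measured value entered the rule.

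Mitochondria carry a small circular genome that is transcribed from both strands into long precursors. The precursors are cut, mostly at the tRNAs, into rRNAs, tRNAs and mRNAs for subunits of the respiratory chain and ATP synthase. This RNA is made and translated inside mitochondria, outside the nucleus.

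The nuclei came from male mice with a Cre-dependent GFP-L10a fusion (LSL-eGFP::L10a) crossed to D1-Cre or D2-Cre, which mark neurons that express dopamine receptor Drd1 or Drd2. Cocaine (20 mg/kg, intraperitoneal) or saline was given daily for 10 days, and a challenge with saline or cocaine followed after 30 days of withdrawal, 1 h before tissue was taken. The 2 group letters were read as the repeated injections and then the challenge, with C for cocaine and S for saline. There were 10 D1_CC, 8 D1_CS, 9 D1_SC and 10 D1_SS libraries, and 10 D2_CC, 10 D2_CS, 9 D2_SC and 9 D2_SS libraries. All groups of a line, saline controls included, carried the same transgenes. The labels do not say that replicates are separate animals, so p-values measure the spread between these samples.

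Library totals ran from 19825 to 34870414 counts with a median of 14893119, and 71 of the 75 libraries held over 1000000. By a rule on depth, genes detected, the Drd1 to Drd2 ratio and correlation, 19 libraries failed. Drd2 counts exceeded Drd1 counts in 16 libraries with a D1 label, against that label. Olfactory and vomeronasal receptor genes, taken as silent in this tissue, also held reads. Scaled to the span of all genes, that background came to 4.02% to 71.3% of a library's counts.

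The mitochondrial genes held a small and very variable share of the counts. The median share over the 75 libraries was 0.101%. The highest was 1.77% in D2_SS 4, with a 95% exact binomial interval of 1.76% to 1.78%. The lowest was 0.0119% in D1_SC 2, with an interval of 0.0115% to 0.0124%. These intervals cover counting error only, and the 2 libraries differed 149-fold.

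Most of these counts were rRNA. Over all libraries the rRNA genes held 74.1% of the mitochondrial counts, the protein genes 23.9% and the tRNA genes 1.91%. Levels per length are given as FPKM (counts per kilobase of gene and 1000000 counts) over the 71 deeper libraries. mt-Rnr1, the small subunit rRNA (chrM:70-1024, plus strand), had a median of 321 FPKM and ranged from 40.6 to 6175 FPKM. mt-Rnr2, the large subunit rRNA (chrM:1094-2675, plus strand), had a median of 283 FPKM and ranged from 29.4 to 5087 FPKM.

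The 2 rRNAs kept a steadier ratio to each other than to the protein genes. The ratio of mt-Rnr1 to mt-Rnr2 density had a median of 1.16 and a range of 0.763 to 1.75. The density of the rRNA genes was a median of 10.8 times that of mt-Nd1, mt-Nd2, mt-Nd5, mt-Nd6 and mt-Cytb together, with a range of 3.75 times in D1_SS 10 to 33.9 times in D2_CS 4. Over the 71 deeper libraries the rRNA share of mitochondrial counts ran from 52.7% in D2_CS 7 to 90.5% in D2_SC 2.

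**Figure D1:**
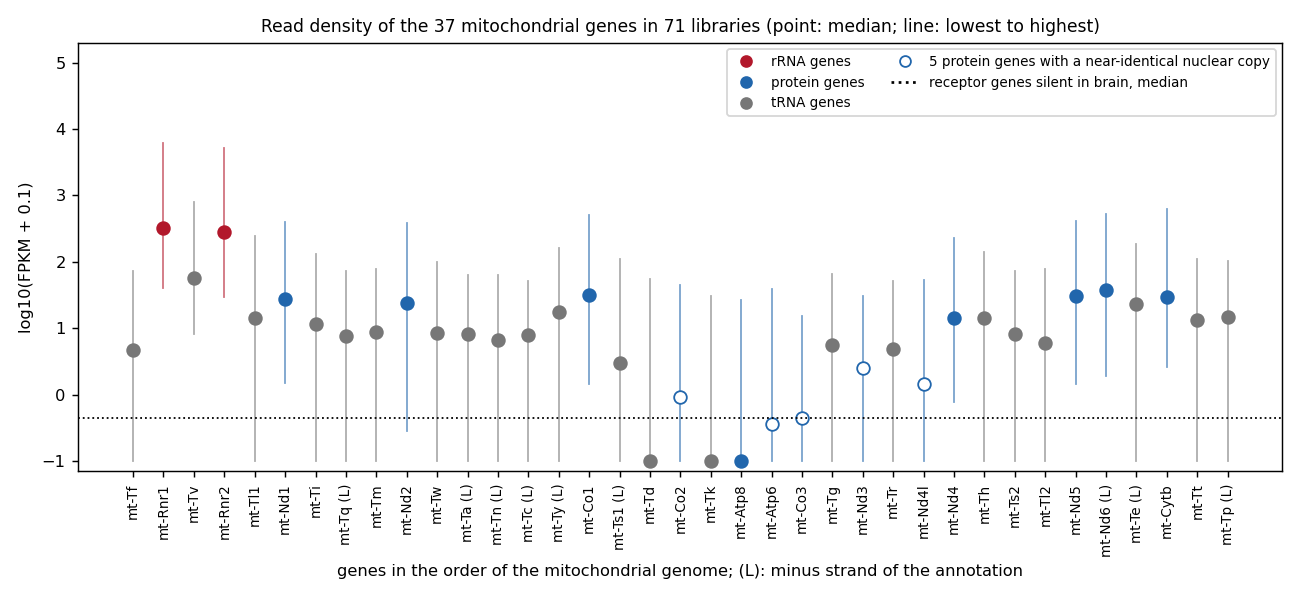
Read density of the 37 mitochondrial genes as log10(FPKM + 0.1), in genome order. Points are medians and lines run from the lowest to the highest of 71 libraries; the dotted line is the median of receptor genes silent in brain (0.348 FPKM). The rRNA genes stand highest (medians 321 and 283 FPKM), and the open circles are 5 protein genes with a near-identical nuclear copy, with medians of 0.259 to 2.38 FPKM.

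The protein genes split into a higher and a lower set. Among subunits of complex I (NADH dehydrogenase), mt-Nd1 had a median of 27.7 FPKM, mt-Nd2 23.7 FPKM, mt-Nd5 30.4 FPKM, mt-Nd6 37.6 FPKM and mt-Nd4 13.9 FPKM. mt-Cytb, cytochrome b of complex III (chrM:14145-15288), had a median of 29.4 FPKM, and mt-Co1, the catalytic subunit of cytochrome c oxidase (chrM:5328-6872), had 31.7 FPKM. The other 6 were far lower. The complex I subunits mt-Nd3 and mt-Nd4l had medians of 2.38 and 1.36 FPKM. The cytochrome c oxidase subunits mt-Co2 and mt-Co3 had 0.814 and 0.349 FPKM. The ATP synthase subunits mt-Atp6 and mt-Atp8 had 0.259 and 0 FPKM. The silent receptor genes had a median of 0.348 FPKM, so mt-Co3 and mt-Atp6 were at or below that background.

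mt-Nd6 is annotated on the minus strand, opposite to the other protein genes, and stood at a level like that of its neighbour mt-Cytb. The ratio of mt-Nd6 to mt-Cytb density had a median of 1.16, with a range of 0.303 in D2_SC 2 to 2.44 in D2_CC 9. The 14 plus-strand tRNA genes together had a median density of 13.1 FPKM, and the 8 minus-strand ones 10.4 FPKM. Whether strand was used in counting is not stated in these sources, so reads from a gene and from RNA of the opposite strand cannot be told apart.

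Among the tRNA genes mt-Tv, which carries valine, was highest at a median of 57.8 FPKM (8.14 to 805 FPKM). It lies between the rRNA genes, with no base left over on either side, and the part of reads that cross into it was not tested. Its sequence (GENCODE M21, mm10, chrM:1025-1093, plus strand) is shown because it stands apart from the other tRNA genes:
mt-Tv: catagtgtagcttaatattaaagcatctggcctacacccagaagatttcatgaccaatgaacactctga
The density of mt-Tv was a median of 5.53 times that of the other tRNA genes, over the 69 libraries where the ratio could be taken. Next were mt-Te (glutamate) at 22.8 FPKM and mt-Ty (tyrosine) at 17.5 FPKM. At the low end, mt-Td (aspartate) and mt-Tk (lysine) had medians of 0 FPKM, with reads in 34 and 24 of the 75 libraries.

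Of the 6 low protein genes, 5 had near-identical nuclear sequence in the annotation. mt-Atp8, which lies between mt-Co2 and mt-Atp6, had no such annotated match. Nuclear genomes hold inserted stretches of mitochondrial DNA, and a read from identical stretches cannot be placed. Of the 50-base windows of each gene, the share found in an annotated nuclear transcript was 100% for mt-Co2, 99.9% for mt-Co3, 99.5% for mt-Atp6, 98.8% for mt-Nd4l and 98.0% for mt-Nd3. It was 62.2% for mt-Nd4 and 51.1% for mt-Co1. It was 8.19% for mt-Nd2, 7.61% for mt-Nd5 and 0% for mt-Nd1, mt-Nd6, mt-Cytb, mt-Atp8 and all 22 tRNA genes. The closest annotated match to mt-Atp8, Gm28925, was 81.4% identical over 167 bases. Only annotated transcripts were searched, so nuclear sequence outside them was not assessed.

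At 99% identity or more over at least 100 bases, the copies were 7 annotated genes side by side on chromosome 1 (chr1:24611535-24616197, minus strand). Below that limit, Gm13340 on chromosome 2 was 97.6% identical to mt-Co1 over all 1545 bases, and Gm13339 was 96.7% identical to mt-Nd2 over 510 bases. Gm28661 was 100% identical to mt-Co2 over 681 bases, Gm10925 to mt-Atp6 over 678, Gm28437 to mt-Co3 over 783, Gm10222 to mt-Nd4l over 294 and Gm28439 to mt-Nd4 over 876. Gm28438 was 99.71% identical to mt-Nd3 over 345 bases and Gm29216 was 99.793% identical to mt-Co1 over 483 bases. The first 120 bases of 2 pairs show how little separates a gene from its copy (GENCODE M21, mm10; mt-Co2 chrM:7013-7132 and mt-Nd3 chrM:9459-9578, plus strand; Gm28661 chr1:24615446-24615565 and Gm28438 chr1:24613000-24613119, minus strand). Capitals mark a base that differs within the pair:
mt-Co2: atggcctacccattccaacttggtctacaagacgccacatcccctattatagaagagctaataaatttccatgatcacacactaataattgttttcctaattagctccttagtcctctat
Gm28661: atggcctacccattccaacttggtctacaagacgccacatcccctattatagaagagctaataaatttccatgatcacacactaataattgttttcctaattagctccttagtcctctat
mt-Nd3: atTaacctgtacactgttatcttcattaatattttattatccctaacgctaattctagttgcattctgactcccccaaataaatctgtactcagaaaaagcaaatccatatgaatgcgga
Gm28438: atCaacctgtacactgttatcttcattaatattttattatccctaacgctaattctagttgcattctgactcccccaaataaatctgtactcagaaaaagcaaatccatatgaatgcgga
The mt-Co2 pair is identical in this stretch. The mt-Nd3 pair differs by T3C, counted from 1 at the 5′ end of mt-Nd3, with the mitochondrial base first.

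The sources do not state whether reads that match several places were counted. The values of mt-Co2, mt-Atp6, mt-Co3, mt-Nd3 and mt-Nd4l are therefore uncertain as levels, as are those of mt-Nd4 and mt-Co1 over the copied stretch. mt-Ts1, mt-Td, mt-Tk, mt-Atp8, mt-Tg and mt-Tr lie among these genes on the mitochondrial genome. The sequence between the annotated copies was not searched, so those values are uncertain as well. Over the 71 libraries the summed density of the 5 fully copied genes was a median of 2.80% of that of mt-Nd1, mt-Nd2, mt-Nd5, mt-Nd6 and mt-Cytb. The nuclear copies were low as well, with medians of 0.0758 FPKM (Gm28437) to 0.663 FPKM (Gm29216).

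In 5 libraries the copied genes stood well above that. The density was 14.7% in D1_CC 4, 25.8% in D1_SS 1, 20.3% in D1_SS 6, 19.7% in D2_CS 7 and 19.5% in D2_CS 10, and at most 4.87% in the other 66 libraries. The 7 nuclear copies on chromosome 1 were high in these libraries too, and also in D2_SS 4, which held 132 counts on them but stood at 2.40% for the copied genes. D2_CS 7 held 854 counts on the 5 mitochondrial genes and 1014 on the 7 nuclear copies, where the medians over libraries were 33 and 16. D1_CC 4 held 414 and 439 counts, and D1_SS 1 held 368 and 402. D2_CS 10 held 289 and 299 counts, and D1_SS 6 held 176 and 129.

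**Figure D2:**
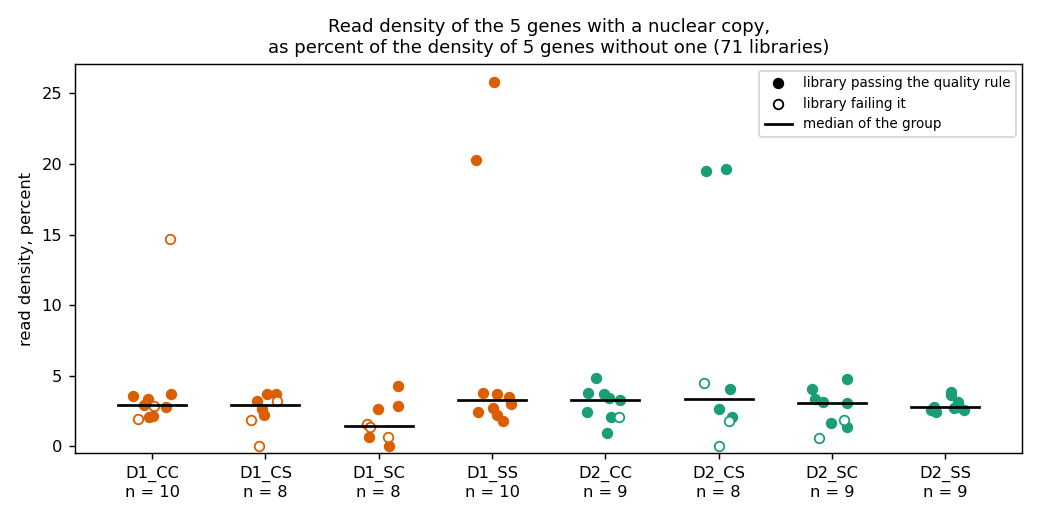
Read density of the 5 mitochondrial protein genes with a near-identical nuclear copy, as percent of the density of 5 protein genes without one, in 71 libraries by group. Each point is a library, open where it failed the quality rule, and black lines are group medians. 5 libraries lie between 14.7% and 25.8%, and the other 66 at or below 4.87%.

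mt-Atp8 and mt-Ts1, which lie within or beside the stretch, had their highest counts in the same 5 libraries. mt-Atp8 had 50 counts in D2_CS 7, 32 in D1_SS 1, 26 in D1_CC 4, 20 in D2_CS 10 and 14 in D1_SS 6, and at most 4 elsewhere. mt-Ts1, a serine tRNA, had 71 counts in D2_CS 7, 35 in D1_SS 1, 33 in D2_CS 10, 30 in D1_CC 4 and 19 in D1_SS 6, and at most 13 elsewhere. Scaled for depth, D2_SC 2 came second for mt-Ts1 at 3.92 CPM, from 8 counts. Group differences of these genes therefore rest on few libraries.

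The mitochondrial share varied more within groups than between group medians. In the D1 line the lowest, median and highest shares were 0.0611%, 0.124% and 0.446% in D1_CC, and 0.0231%, 0.0677% and 0.116% in D1_CS. They were 0.0119%, 0.0912% and 0.349% in D1_SC, and 0.0189%, 0.135% and 0.391% in D1_SS. The D1_CS range was the narrowest of the 8 and every pair of groups overlapped. In the D2 line they were 0.0121%, 0.0610% and 0.283% in D2_CC, and 0.0148%, 0.188% and 0.466% in D2_CS. They were 0.0142%, 0.101% and 0.735% in D2_SC, and 0.0166%, 0.184% and 1.77% in D2_SS. In bulk samples, fewer nuclei that carry this RNA and less of it per nucleus cannot be told apart.

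**Figure D3:**
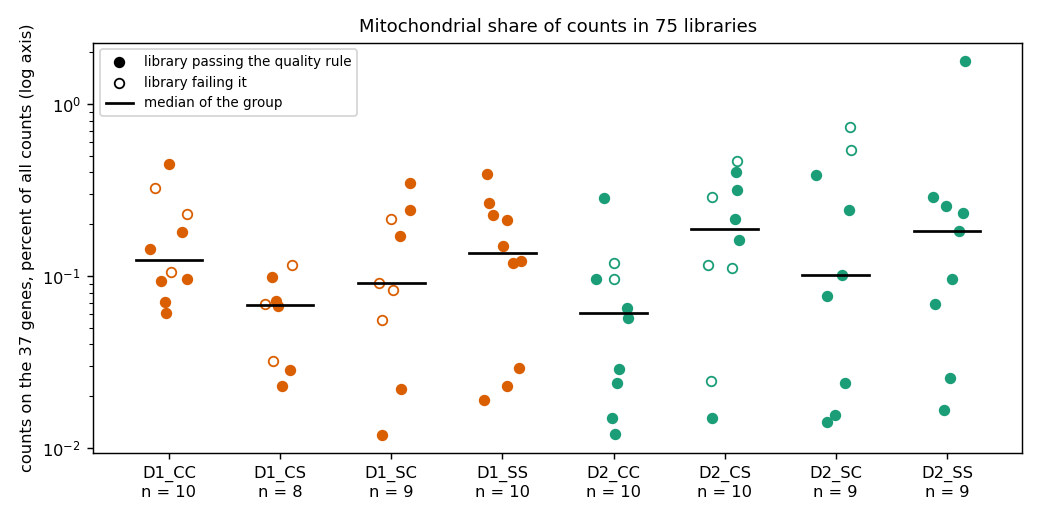
Counts on the 37 mitochondrial genes as percent of all counts, on a log axis, for 75 libraries by group. Open points failed the quality rule and black lines are group medians. The medians lie between 0.0610% (D2_CC) and 0.188% (D2_CS), and D2_SS 4 stands apart at 1.77%.

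Among libraries labelled D1, mitochondrial genes were higher after a cocaine challenge on a cocaine history (D1_CC) than after a saline challenge on it (D1_CS). By edgeR's quasi-likelihood test with Benjamini-Hochberg adjustment over all genes, 22 of the 31 members that passed the low-count filter rose and 0 fell. Of all genes tested, 8.31% were called, 8.28% higher and 0.0292% lower. The median log2 change of the 31 was 2.03, against -0.09 for all genes. With library totals only it was 1.62, against -0.25 for all genes. Group medians of the share of counts on the 37 genes differed less, at 0.124% in D1_CC and 0.0677% in D1_CS. The highest D1_CC shares were 0.446% in D1_CC 1 and 0.327% in D1_CC 3, and D1_CC 3 failed the quality rule. mt-Tf, mt-Ts1, mt-Td, mt-Tk, mt-Atp8 and mt-Atp6 did not pass the filter.

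Members of all 3 classes were called. Both rRNA genes, 9 of 11 protein genes and 11 of 18 tRNA genes rose, with median log2 changes of 1.96, 2.14 and 1.99. The genes share precursors and were measured in the same libraries. Members, here and in the other comparisons, are therefore not independent of each other. Among the 31 the log2 change was lowest for mt-Tq, a glutamine tRNA (1.42, adjusted p = 0.174 by edgeR), and highest for mt-Nd4l (2.60).

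mt-Co1 had the smallest p. Its lowest, median and highest levels were 27.5, 64.0 and 253 CPM (counts scaled to a library total of 1000000) in D1_CC, against 12.7, 30.5 and 49.0 CPM in D1_CS. The ranges overlapped, with 8 of 10 D1_CC libraries above every D1_CS library. Its log2 change was 2.28 ± 0.62 (SE, adjusted p = 0.0201 by edgeR), and part of the gene is copied in the nucleus.

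mt-Nd4 had 11.5, 26.6 and 93.3 CPM in D1_CC, against 5.44, 10.5 and 20.3 CPM in D1_CS. Of the D1_CC libraries, 7 of 10 lay above every D1_CS library. Its log2 change was 2.16 ± 0.59 (adjusted p = 0.0211 by edgeR). mt-Tt, a threonine tRNA, had 0.673, 1.64 and 4.03 CPM in D1_CC, against 0.262, 0.561 and 0.754 CPM in D1_CS. All 10 D1_CC libraries lay above the D1_CS mean, and the log2 change was 2.09 ± 0.57 (adjusted p = 0.0209 by edgeR). mt-Tl2, a leucine tRNA, had 0.299, 0.933 and 1.93 CPM in D1_CC, against 0, 0.229 and 0.464 CPM in D1_CS. Its log2 change was 2.20 ± 0.61 (adjusted p = 0.0220 by edgeR), with 7 of 10 D1_CC libraries above every D1_CS library.

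**Figure D4:**
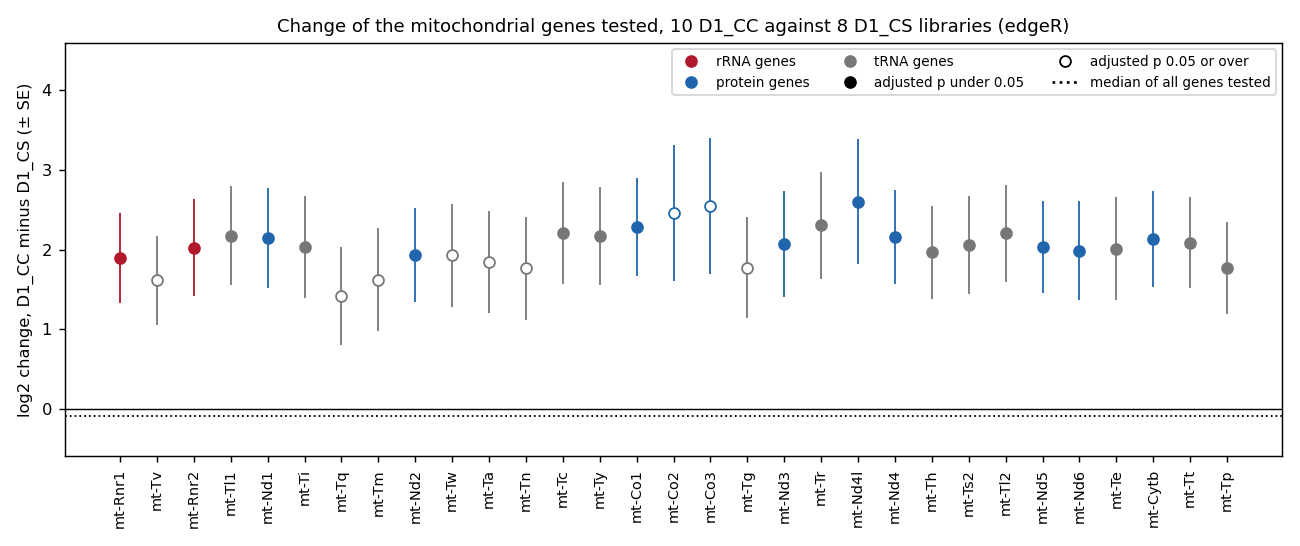
Log2 change of the 31 mitochondrial genes tested between 10 D1_CC and 8 D1_CS libraries, with a standard error derived from the edgeR test statistic. Filled points had an adjusted p under 0.05, and the dotted line is the median of all genes tested (-0.09). All 31 lie above 0, between 1.42 and 2.60.

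The direction held across settings, while the number of calls varied. Under the 10 alternatives of scaling, filter, test, covariate or library set, all tested members were above 0, with medians of 1.35 to 2.25. The count called was 13 with DESeq2 (6.45% of all genes), 24 with limma (12% of all genes), 21 with no low-count filter (2902 genes) and 28 with a replicate block (2787 genes). It was 0 with DESeq2's size factors in edgeR, where 674 genes were called. It was also 0 with library totals alone, with the background share as a covariate and without the failing libraries (7 D1_CC and 5 D1_CS left), where 0 of all genes were called. Single libraries mattered too, with 0 members called without D1_CC 1, without D1_CC 3 or without D1_CS 2, and 3, 9, 7 and 11 without D1_CS 1, D1_CS 6, D1_CS 7 or D1_CS 8. Counts over all genes are not given here for those fits. Without the libraries high on the copied genes, 12 of 29 were called (2250 genes).

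Nuclear genes whose products work in mitochondria or on cytosolic ribosomes differed in the same direction. Of 77 nuclear-encoded respiratory chain subunits, 63 rose and 0 fell, with a median log2 change of 1.70. Ndufb10 of complex I had 2.67 ± 0.60 and Atp5a1 of ATP synthase 2.55 ± 0.57 (adjusted p = 0.0170 by edgeR for both). Of 79 cytosolic ribosomal protein genes, 61 rose and 0 fell, with a median of 1.96. Rplp0 had 2.40 ± 0.57 and Rpl15 had 2.54 ± 0.60 (adjusted p = 0.0170 by edgeR for both). Of 47 factors for mitochondrial DNA and RNA that were tested, 10 rose and 0 fell, with a median of 0.50. Hsd17b10, a subunit of mitochondrial RNase P, had 1.75 ± 0.46 (adjusted p = 0.0182 by edgeR), and Slirp, which stabilises mitochondrial mRNA, had 1.25 ± 0.35 (adjusted p = 0.0223 by edgeR). These list calls are absent too with library totals alone, with the background covariate and without the failing libraries, where 0 of all genes were called.

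Other measures moved beside them. The summed ribosomal protein genes had 772, 1418 and 5618 CPM (lowest, median, highest) in D1_CC, against 510, 982 and 1257 CPM in D1_CS. The 6 D2 neuron markers, all detected, had 221, 1051 and 2386 CPM in D1_CC, against 171, 265 and 1127 CPM in D1_CS. The 6 D1 neuron markers, all detected, had 237, 532 and 1663 CPM in D1_CC, against 281, 363 and 484 CPM in D1_CS. Both marker sets overlapped between the groups. The background share had a median of 55.6% in D1_CC and 63.7% in D1_CS. No marker gene was at 0 in either group. Summed markers of astrocytes had 188, 218 and 253 CPM in D1_CC, against 103, 215 and 252 CPM in D1_CS, and those of oligodendrocytes 155, 173 and 365 CPM in D1_CC, against 96.2, 160 and 184 CPM in D1_CS. Microglia markers had 97.5, 120 and 150 CPM in D1_CC, against 83.7, 135 and 160 CPM in D1_CS. Endothelial markers had 21.2, 169 and 222 CPM in D1_CC, against 64.1, 204 and 259 CPM in D1_CS. These glial and vascular sums overlapped between the groups. Blood markers stood at 11.6 to 16.8 CPM in D1_CC and 10.6 to 19.8 CPM in D1_CS, choroid plexus markers at 14.6 to 43.0 CPM in D1_CC and 9.44 to 53.8 CPM in D1_CS, and cortical glutamatergic markers at 8.02 to 118 CPM in D1_CC and 30.9 to 158 CPM in D1_CS. Of single markers, 3 of 6 for D1 neurons, 2 of 6 for D2 neurons, 1 of 5 for medium spiny neurons, 1 of 5 for oligodendrocytes and 1 of 5 for blood rose, and none of the 5 for astrocytes, 5 for microglia, 4 for endothelium, 3 for choroid plexus and 3 for cortical neurons passed. None of the 7 nuclear copies passed the low-count filter. The part of these measures in the mitochondrial difference was not tested. Without libraries with the receptor ratio of the other line, 18 members and 3669 of all genes were called.

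The D1 groups share libraries between comparisons, and against D1_SS no member was called by edgeR. D1_CS was below D1_SS in all 31 members, with a median log2 change of -1.44 against 0.06 for all genes, of which 0% were called. Of the 31, 26 had an unadjusted p under 0.05 in edgeR, against 1204 of all 37721 genes. DESeq2 called 0 members and limma with library weights called 29, while limma called 43.9% of all genes. The other lists were lower as well, with 0 of 79 ribosomal protein genes (median -1.33) and 1 of 77 respiratory chain subunits (median -1.01) above 0 and none called by edgeR. Their part in the mitochondrial difference was not tested. mt-Nd4l, with the smallest p, had 0, 0.115 and 0.480 CPM in D1_CS, against 0.0432, 0.485 and 4.43 CPM in D1_SS. The ranges overlapped, and its log2 change was -2.78 ± 0.79 (adjusted p = 1.00 by edgeR). The highest D1_SS value was in D1_SS 1, one of the libraries high on the copied genes.

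D1_CC differed from D1_SS by a median log2 change of 0.52 over the members, against 0.03 for all genes (0% called). edgeR, DESeq2 and limma called 0, with 0 at an unadjusted p under 0.05 in edgeR, against 2627 of all 37721 genes. mt-Co1 had 27.5, 64.0 and 253 CPM in D1_CC, against 5.97, 69.4 and 193 CPM in D1_SS. The ranges overlapped, and its log2 change was 0.77 ± 0.54 (adjusted p = 0.902 by edgeR; -0.18 in limma).

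D1_SC differed from D1_SS by a median of -0.24, against -0.07 for all genes, of which 11.3% were called, 9.7% higher and 1.64% lower. The median was 0.22 in limma. edgeR, DESeq2 and limma called 0 members, with 0 at an unadjusted p under 0.05 in edgeR, against 12141 of all 37721 genes. mt-Co3 had 0, 0 and 1.40 CPM in D1_SC, against 0, 0.410 and 7.90 CPM in D1_SS, and its log2 change was -1.67 ± 0.83 (adjusted p = 0.158 by edgeR).

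D1_CC was above D1_SC by a median of 0.76, against 0.19 for all genes, of which 10.5% were called, 2.62% higher and 7.86% lower. In limma the median was -0.26. edgeR, DESeq2 and limma called 0 members, and 1 had an unadjusted p under 0.05 in edgeR, against 12224 of all 37721 genes. limma called 17029 of the 37721 genes here. Without D1_SC 7, 5 members were called, and the count over all genes in that fit is not given here. mt-Nd4 had 11.5, 26.6 and 93.3 CPM in D1_CC, against 1.501, 6.24 and 52.5 CPM in D1_SC. Of the D1_SC libraries, 6 of 9 lay below every D1_CC library. Its log2 change was 1.18 ± 0.55 (adjusted p = 0.135 by edgeR).

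Among libraries labelled D2, no member was called by edgeR or DESeq2 in 5 comparisons, which share libraries. D2_CC was below D2_SS in all 32 members tested, with a median log2 change of -1.52 against -0.01 for all genes (0% called). Of the 32, 17 had an unadjusted p under 0.05 in edgeR, against 380 of all 36090 genes. limma with library weights called 21 members, while limma called 23.3% of all genes. None of 79 ribosomal protein genes (median -0.83) and none of 77 respiratory chain subunits (median -0.54) were above 0, and edgeR called 0 of both lists. mt-Nd1 had 0, 11.3 and 89.3 CPM in D2_CC, against 6.33, 53.7 and 385 CPM in D2_SS. The 0 was in D2_CC 10, which held 19825 counts, and the 385 CPM in D2_SS 4. Of the D2_CC libraries 9 of 10 lay below the D2_SS mean, and the log2 change was -2.06 ± 0.71 (adjusted p = 1.000 by edgeR).

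D2_CC was also below D2_CS in all 32 members, with a median of -1.17 against 0.02 for all genes, of which 0.252% were called. There 9 members had an unadjusted p under 0.05 in edgeR, against 2853 of all 36090 genes. limma called 0 members, with a median of -0.21 and 8 of 32 above 0. mt-Co2 had 0, 0.218 and 2.27 CPM in D2_CC, against 0, 0.767 and 30.4 CPM in D2_CS. Its log2 change was -3.49 ± 0.84 (adjusted p = 0.0508 by edgeR). Without the libraries high on the copied genes it was -1.01 (adjusted p = 0.578 by edgeR), and 14 of 32 members were above 0. Single D2_CS libraries left out gave up to 3 calls. No low-count filter gave 4 (145 of all genes) and the background covariate gave 1 (66 of all genes).

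D2_CC differed from D2_SC by a median of -0.95, against 0.03 for all genes (0% called). In edgeR 3 members and 1192 of all 36090 genes had an unadjusted p under 0.05, and limma called 0 members. mt-Tv had 0, 2.21 and 11.8 CPM in D2_CC, against 0.562, 4.35 and 46.0 CPM in D2_SC. That 0 came from D2_CC 10, where 3 counts are 151 CPM. The ranges overlapped, and the log2 change was -1.98 ± 0.70 (adjusted p = 0.988 by edgeR).

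D2_CS differed from D2_SS by a median of -0.32, against -0.03 for all genes, of which 0.0859% were called. There 2 members and 1811 of all 36090 genes had an unadjusted p under 0.05 in edgeR. limma called 1 member and 11.5% of all genes, with a median of -1.28 over the members. mt-Nd4l had 0, 0.263 and 15.5 CPM in D2_CS, against 0, 0.730 and 2.63 CPM in D2_SS. Its fitted log2 change was 1.80 ± 0.76 (adjusted p = 0.719 by edgeR) although its median was lower in D2_CS. It was -0.43 without the libraries high on the copied genes and -0.13 in limma. D2_SC differed from D2_SS by a median of -0.47, against -0.03 for all genes (0% called). In edgeR 0 members and 1914 of all 36090 genes had an unadjusted p under 0.05. limma gave a median of -0.03, and called 0 members and 4892 of 36090 genes. mt-Nd6 had 1.61, 27.7 and 103 CPM in D2_SC, against 2.02, 50.3 and 271 CPM in D2_SS, a log2 change of -0.90 ± 0.77 (adjusted p = 0.988 by edgeR).

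Between the lines, 34 members were tested in a fit of all 8 groups. D1_SS against D2_SS had a median log2 change of -0.97, against -0.01 for all genes, of which 0.0255% were called, 0.0127% higher and 0.0127% lower. edgeR, DESeq2 and limma called 0 members, and 4 had an unadjusted p under 0.05 in edgeR, against 219 of all 39250 genes. Without D2_SS 4 the median was -0.36. mt-Tl2 had 0.130, 0.411 and 2.62 CPM in D1_SS, against 0.127, 1.69 and 5.44 CPM in D2_SS, and its log2 change was -1.37 ± 0.59 (adjusted p = 1.000 by edgeR).

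The response to each schedule was compared between lines as the D1 change minus the D2 change, all against SS. For CS minus SS, 2 members were lower and 0 higher, against 0.0892% of all genes called lower. mt-Atp6 had a log2 difference of -6.78 ± 1.40 (adjusted p = 0.0204 by edgeR) and mt-Ts1 of -5.09 ± 1.17 (adjusted p = 0.0485 by edgeR). The median of the 34 was -1.18, against 0.02 for all genes, with none above 0. In limma it was -0.06, with 14 of 34 above 0, and limma called 0 of all genes. The ribosomal protein genes had a median of -1.03 in edgeR and the respiratory chain subunits -0.97, with 0 of 79 and 0 of 77 above 0.

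The values behind these differences were low outside a few libraries. mt-Atp6 had 0, 0.0665 and 0.336 CPM (lowest, median, highest) in D1_CS, against 0, 0.215 and 10.3 CPM in D1_SS. It had 0, 0.175 and 26.02 CPM in D2_CS, against 0, 0.449 and 2.81 CPM in D2_SS. The medians were lower in CS than in SS in both lines, and the highest values were in D1_SS 1 and D2_CS 7. mt-Ts1 had 0, 0.0498 and 0.213 CPM in D1_CS, against 0, 0.261 and 3.37 CPM in D1_SS. It had 0, 0.0287 and 7.67 CPM in D2_CS, against 0, 0.466 and 1.31 CPM in D2_SS. Without D2_CS 7, 0 members and 90 of all genes were called. Without all 5 libraries high on the copied genes 0 of 32 members and 157 of all genes were called. The median over the members was then -0.54. Without D2_SS 4, 5 members and 64 of all genes were called. Of the 7 nuclear copies 5 were tested here, and 2 were lower and 0 higher, with a median log2 difference of -5.23. Several libraries were at 0 counts, so the fitted sizes depend on the prior count.

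For SC minus SS, the D1 change minus the D2 change had a median of 0.23 over the 34 members, against 0.00 for all genes, of which 0.028% were called. edgeR, DESeq2 and limma called 0 members, with 0 at an unadjusted p under 0.05 in edgeR, against 2027 of all 39250 genes. The median over the members was -0.37 without D2_SS 4. For CC minus SS the median was 1.88, against 0.06 for all genes (0% called), and 1.40 without D2_SS 4. There edgeR, DESeq2 and limma called 0 members, with 19 at an unadjusted p under 0.05 in edgeR, against 2368 of all 39250 genes. mt-Cytb had 17.4, 48.3 and 168 CPM in D1_CC, against 6.50, 44.2 and 149 CPM in D1_SS. It had 0, 15.1 and 139 CPM in D2_CC, against 6.62, 75.3 and 709 CPM in D2_SS. That 0 came from D2_CC 10, where 3 counts are 151 CPM. The log2 difference of mt-Cytb was 2.95 ± 0.96 (adjusted p = 0.820 by edgeR), and 1.72 without D2_SS 4.

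mt-Cytb was higher in libraries with more cytosolic ribosomal protein mRNA. Over 71 libraries Pearson's r between mt-Cytb and the summed ribosomal protein genes, both as log2(CPM + 1), was 0.673 and Spearman's rho was 0.687 (adjusted permutation p = 3e-05 for both over 3 relations, from the smallest p that 100000 permutations can give). Without the 2 libraries farthest from the median of the x axis r was 0.657. Within D1 libraries r was 0.849 and rho 0.853 (n = 36, adjusted permutation p = 3e-05 for both), with r of 0.821 without the 2 farthest. Within D2 libraries r was 0.601 and rho 0.600 (n = 35, adjusted permutation p = 0.00054 and 0.00051), with r of 0.520 without the 2 farthest. All tests were two-sided. For all 3 relations, values were permuted across groups, so differences between groups enter r, rho and p.

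**Figure D5:**
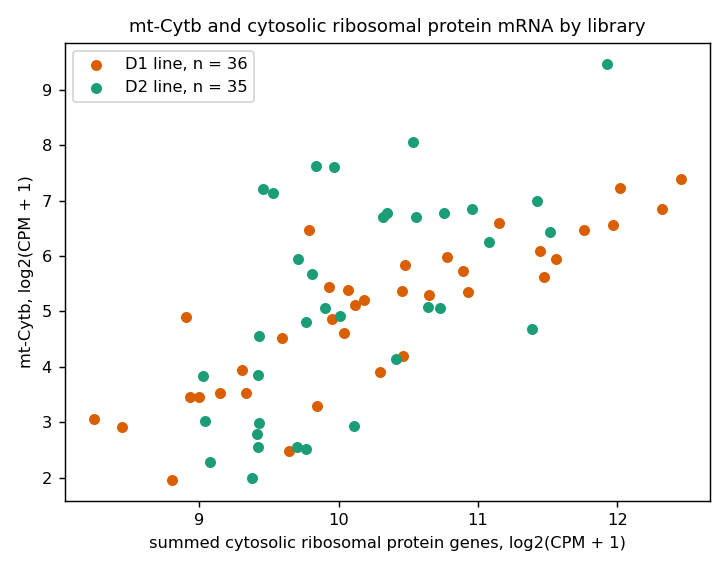
mt-Cytb against the summed cytosolic ribosomal protein genes, both as log2(CPM + 1), in 71 libraries coloured by line. Libraries with more ribosomal protein mRNA held more mt-Cytb, with r of 0.849 in the D1 line and 0.601 in the D2 line.

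The other 2 relations did not pass. With the background share r was 0.147 and rho 0.0545 (n = 71, adjusted permutation p = 0.33 and 0.65), with r of -0.0428 within D1 and 0.316 within D2 libraries, and 0.153 without the 2 farthest. With Malat1, an RNA retained in the nucleus, r was -0.00876 and rho -0.0795 (n = 71, adjusted permutation p = 0.942 and 0.65), with r of 0.164 within D1 and -0.176 within D2 libraries, and -0.0744 without the 2 farthest.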

How the data were processed

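Nuclear RNA was measured in 75 libraries, made with a stranded total RNA kit for low input, per the labels' protocols. The authors deposited raw counts per gene and FPKM. featureCounts, DESeq2 and the mm10 build are named in the submitters' processing notes. Versions, the aligner, the strand setting and the handling of reads that match several places are not given in the sources used here. Deposited FPKM equalled counts per total and per kilobase of gene span, introns included (span equal to the implied length for 54743 of 55062 genes). These values served for lengths and for the FPKM of single mitochondrial genes. All tests used the counts, and all columns matched a labelled sample.

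The 37 genes and all lists were chosen with earlier results of these data known. Tests were two-sided quasi-likelihood tests of edgeR 4.0.16 (R 4.3.3) after filterByExpr, scaled by TMM, with Benjamini-Hochberg adjustment over all genes and a threshold of 0.05. The 37721 D1 and 36090 D2 genes were fitted by line, and 39250 genes over all 8 groups. Standard errors of edgeR changes were derived as the absolute log2 change over the square root of the test's F statistic. Alternatives were DESeq2 1.42.0, limma 3.58.1 (voom with library weights), other scalings, no filter, a background covariate, a replicate block and left-out libraries. Log2 changes are named for the members that passed (at most the 4 with the smallest p) or, where none passed, for the member with the smallest p. On simulated data for D1_CC minus D1_CS over 37286 genes, the fit called 98% of genes changed 4-fold, 30% of those changed 2-fold and 0.03% of unchanged genes. The simulation gave every gene the same dispersion, drew genes independently and changed no gene of low level. These rates therefore need not hold for the real libraries. Nuclear copies were sought with BLAST 2.17.0 and with 50-base windows in GENCODE M21 transcripts.

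Chosen after the values were seen were the window limits (97% and 10%), the 99% identity limit, the ratios between genes, the sequences shown, the 10% limit for libraries high on the copied genes, 4 kinds of left-out libraries (D2_SS 4, D2_CS 7, those high on the copied genes and those with the other line's receptor ratio) and the gene set of the quality rule's correlation (other sets failed 17 to 21 libraries). Libraries of the same number did not deviate together, so numbers were not used as pairs. Depth limits low genes: 3 counts, the limit that a count of 0 allows, are 0.246 CPM in D1_CC 4. The same limit is 4.61 CPM in D1_SC 5, 114 CPM in D2_CS 6, 150 CPM in D2_CS 9 and 151 CPM in D2_CC 10. These shallow libraries stayed in the main fits and in the group ranges, so a lowest value of 0 there says little. Intervals are exact binomial at 95% and cover counting error only.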

Additional observations from a re-analysis of the deposited data

Results flagged for a closer look

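In 24 sets of libraries, 8 groups by 3 measures chosen after the values were seen, 4 libraries stood apart from their group. The rule's chance rate of about 1 in 20 need not hold here. It was applied to raw percents, and the shares of counts were skewed towards high values. The share of counts on the 37 genes was 1.772% in D2_SS 4, with the next at 0.2874%, and 0.2834% in D2_CC 7, with the next at 0.1187%. The rRNA share of mitochondrial counts was 53.67% in D1_SS 10, with the next lowest at 73.14%. The density of the 5 copied genes was 14.71% of that of the 5 without a copy in D1_CC 4, with the next at 3.686%.

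The response to CS against SS differed between the D1 and D2 lines for mt-Atp6 (-6.779 on the log2 scale, adjusted p = 0.0204 by edgeR) and for mt-Ts1 (-5.094, adjusted p = 0.0485 by edgeR). Their highest values were in D2_CS 7 and D1_SS 1, which were also high on the nuclear copies. The part of the nuclear copies in these differences was not tested beyond leaving those libraries out.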

How the results depend on the processing

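For D1_CC minus D1_CS, 22 members were called. The count was 0 with DESeq2's size factors, with library totals only, without failing libraries and with the background covariate (0 of all genes in the last 3 and 674 in the first), 12 without libraries high on the copied genes and 13 with DESeq2. It ran from 0 to 28 when 1 library was left out. DESeq2's size factors moved the median of all genes by -0.16. For the CS line difference 2 were called, and 0 with those size factors, totals only, DESeq2, limma, without failing libraries, without libraries high on the copied genes or with the replicate block; the range was 0 to 5 without D2_CS 7 or D2_SS 4. limma called 29 for D1_CS minus D1_SS, 21 for D2_CC minus D2_SS and 1 for D2_CS minus D2_SS, where edgeR called 0. Over all genes limma called 16547, 8423 and 4155 there. For D2_CC minus D2_CS, 4 were called with no low-count filter (145 of all genes), 1 with the background covariate (66 of all genes) and 0 to 3 without 1 library. For D1_CC minus D1_SC the range was 0 to 5. The causes were not tested beyond these settings. Directions turned in limma for mt-Co1 in D1_CC minus D1_SS (-0.18), mt-Nd4 in D1_CC minus D1_SC (-0.18) and mt-Nd4l in D2_CS minus D2_SS (-0.13; -0.43 without libraries high on the copied genes), and with a pseudocount of 10 for mt-Cytb against Malat1 (r = 0.0192).

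The replicate block gave 28 calls for D1_CC minus D1_CS. Same-numbered libraries deviated with correlations of -0.76 to 0.79 in D1 (18 of 49 pairs over 0.1) and -0.76 to 0.68 in D2 (21 of 48), so the numbers did not pair them. Over all alternatives, the counts and relations stayed the same 298 times, moved 34 times and reversed 1 time. Counts of 0 that stayed 0 are among the 298, so this tally does not show how steady the calls were. For D1_CC minus D1_CS, 7 of the 18 fits without 1 library moved. Depth limits the low genes. mt-Td, mt-Tk and mt-Atp8 had medians of 0 and lie among the copied genes. mt-Tt and mt-Tp, of a length like that of mt-Td and mt-Tk, had medians of 12.9 and 14.7 FPKM. The part of depth in these medians was not tested.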
